A study of Mus musculus with 7 samples.

Results

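The genes described here are 38 genes of meningeal fibroblasts and of the extracellular matrix other than collagens. They were taken by symbol from a list, as the rows of the deposited table that carry those names. All 38 were found among the 22880 genes of the table, and all 38 also passed the filter on low values that left 13866 genes for testing. RNA had been sequenced from optic nerves of mice at postnatal day 14 (P14), a time of active myelination, and each sample was the pair of nerves of 1 mouse. The 4 control mice (CT) were FASN lox/lox, so they carried the floxed alleles of the fatty acid synthase gene without Cre. The 3 mutant mice (cMU) were olig2cre FASN lox/lox. The Cre of these mice is driven by the Olig2 promoter and deletes Fasn in the oligodendrocyte (OL) lineage, whereas the members are known mainly from cells outside that lineage. The labels give C57Bl/6 as the strain background of both groups, and the floxed line had been crossed into it for at least 3 generations. The labels do not give the sex of the mice.

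The optic nerve is a tract of the central nervous system and is wrapped in meninges, the pia, arachnoid and dura, whose fibroblasts make most of its fibrous matrix. In that matrix, small leucine-rich proteoglycans coat collagen fibrils and set their thickness, fibrillin microfibrils carry elastin, and matricellular proteins such as thrombospondins act on cell adhesion rather than as structural fibres. Meningeal fibroblasts are also known for the transcription factor Foxc1, for making retinoic acid, and for carriers that move organic ions and sulfate between cerebrospinal fluid and blood.

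Levels are given as FPKM, the deposited value scaled by the authors for transcript length and library size, so that levels of different genes can be compared. Differences are log2 fold changes of FPKM + 0.5, mutant over control, from limma-trend, fitted with genotype and no other term. Adjusted p-values come from the Benjamini-Hochberg method over all 13866 genes, and a gene was called at an adjusted p under 0.05. Fasn itself fell from 205 to 56.3 FPKM (adjusted p = 0.00312, limma), with every mutant sample below every control sample. The reads recovered from the normalized counts ranged from 31313177 to 43460854 a sample in control and from 27456999 to 35748690 in mutant mice. Mutant sample 1 and control sample 2 stood apart in the members, and results are therefore also given without mutant sample 1. The Y chromosome genes Ddx3y and Eif2s3y were near 0 in control samples 1 and 2 and mutant samples 1 and 2 (Ddx3y at most 0.0568 FPKM). In the other samples Ddx3y was at 40.0 to 43.2 FPKM. Uty was at 0.406 to 0.735 FPKM in the former samples and at 7.84 to 8.555 FPKM in the latter. Kdm5d was not near 0 in any sample, at 6.65 to 7.51 and 14.7 to 15.9 FPKM. By these genes, samples of the same number were of the same sex.

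The RefSeq promoter table (build GRCm38.p6) held 24 of the 38 members by symbol. In 20 of them the start site lay within 100 bases of the start of the gene as deposited. It lay further off in Fbln2 (309 bases), Islr (667), Fbn1 (1555) and Pcolce (2380). The bases just after the start site were found near the beginning of an annotated transcript of the gene for 18 of the 24. The 250 bases before the start site are shown for Slc13a4 and Sparc, because they are the members called in the comparison of genotypes. They lie at chr6:35308127-35308376 for Slc13a4 and at chr11:55420081-55420330 for Sparc, both on the minus strand, and are printed 5′ to 3′. The window of Slc13a4 reaches 5 bases into the gene as deposited. Capitals mark matches on either strand to the CCAAT box (CCAAT) and the GC box (GGGCGG). The other motifs searched, the TATA box (TATAAA), the AP-1 site (TGANTCA) and the forkhead core (TGTTTAC), had no match in either window.
Slc13a4: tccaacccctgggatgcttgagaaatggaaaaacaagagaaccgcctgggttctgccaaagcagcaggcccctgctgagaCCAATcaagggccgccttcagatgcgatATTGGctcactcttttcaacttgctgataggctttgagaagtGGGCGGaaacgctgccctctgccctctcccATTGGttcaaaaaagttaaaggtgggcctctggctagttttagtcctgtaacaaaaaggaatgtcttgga
Sparc: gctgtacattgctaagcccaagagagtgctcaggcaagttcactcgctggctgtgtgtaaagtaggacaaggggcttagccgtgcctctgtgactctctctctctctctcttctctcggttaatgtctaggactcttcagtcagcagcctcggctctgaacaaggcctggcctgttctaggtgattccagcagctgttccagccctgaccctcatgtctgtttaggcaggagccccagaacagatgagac
The Slc13a4 window held 3 CCAAT boxes, at -170, -142 and -70 from the start site, and 1 GC box at -100. The Sparc window held none of the motifs. Over the 24 members, CCAAT was found in 11 (45.8%, against 33.8% of 32536 promoter windows of the same length), GGGCGG in 9 (37.5% against 33.0%) and TATAAA in 5 (20.8% against 12.3%). The AP-1 site and the forkhead core were in none of the 24, against 6.73% and 3.17% of all windows. Fbln2, Fbn1 and Pcolce, whose start sites lay further off, are among the members with GGGCGG. All of these counts are matches of letters only.

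The members covered a wide range of abundance in control nerves. The median control mean was 28.4 FPKM, with Tbx18 the lowest at 4.28 and Sparc the highest at 1002. Sparc, Fmod, Mgp, Fn1, Slc13a4 and Eln were at 100 FPKM or more, 23 members lay between 10 and 100, and 9 were below 10. The genes that define meningeal fibroblasts were present in every sample of both genotypes, with Foxc1 between 6.01 and 18.4 FPKM, Slc22a6 between 13.4 and 38.6 FPKM and Aldh1a2 between 44.3 and 119 FPKM. Some members are known to be made by other cells of the nerve as well, among them Sparc by glia and vessels and Tnc by astrocytes. In these whole nerves, more cells of a type and more RNA per cell cannot be told apart.

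The mean of the mutant samples was above that of the control samples for all 38 members, against 60.1% of all genes tested. The median log2 fold change of the members was 0.59, with a range of 0.12 (Eln) to 1.25 (Thbs1), and the median over all genes tested was 0.05. Only Sparc and Slc13a4 passed the threshold over all genes, both higher in mutant nerves. Those 2 of 38 stand against 1.26% of all genes called higher, and 0 members were called lower against 1.36% (limma). At an unadjusted p under 0.05, 25 members were higher and 0 were lower, against 15.9% of all genes higher at that level. In 11 of the 38 members every mutant sample lay above every control sample, and in none did every mutant sample lie below, against 12.9% of all genes with all mutant samples above. An exact permutation over 4 and 3 samples reaches no two-sided p below 0.0571 for 1 gene, so these separations cannot pass 0.05 by themselves.

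The labels number the samples without saying what a number means. Deviations from the group means correlated positively in each pair of the same number, but the correlations were low (0.168 to 0.409). Control sample 4 and mutant sample 1, of different numbers, reached 0.205, above pair 1. Reading the numbers as pairs is therefore an assumption, and all calls of the paired fit rest on it. In a fit that adds the number as a replicate block, differences come from pairs of the same number and control sample 4 adds nothing to them. In that fit 23 of the 38 members were called higher and none lower (limma), against 6.42% of all genes called higher. The median log2 fold change was 0.64 in it. Without mutant sample 1 the median fell to 0.32, the mean stayed higher in mutant nerves for 35 members, and 0 members were called, against 0.743% of all genes called higher. At an unadjusted p under 0.05, 11 members (of 38) were still higher without mutant sample 1, against 10.8% of all genes in the same fit. The size of the difference thus rested in large part on that 1 mouse, and its direction was seen in the other mutant samples for most members.

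**Figure D1:**
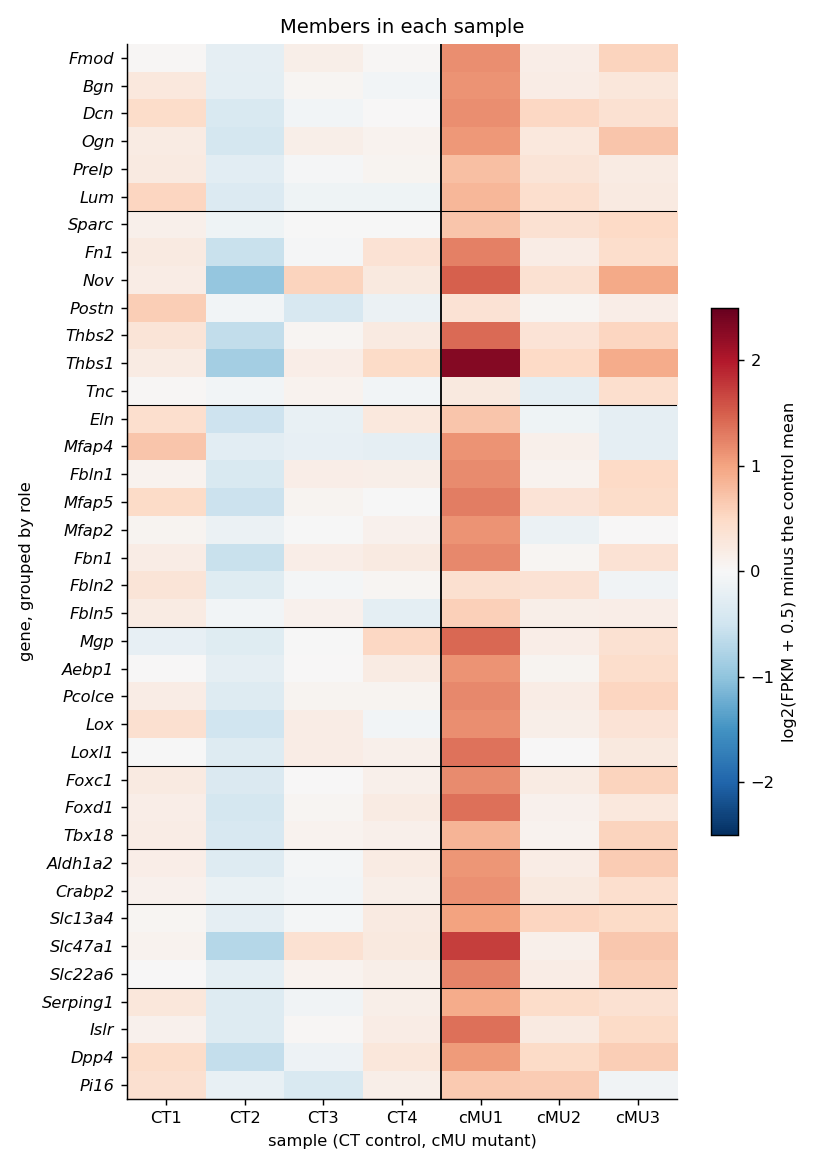
The 38 members by role (rows) in the 7 samples (columns); colour gives log2(FPKM + 0.5) minus the mean of the 4 control samples, and horizontal lines separate the roles. The column of mutant sample 1 is the most red, where it was the highest sample for 36 of the 38 members, and the column of control sample 2 is the most blue, where it was the lowest for 33.

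The highest and the lowest sample were the same for most members, as the heat map of the members shows, while the order of the samples between them varied. Mutant sample 1 had the highest FPKM in 36 of the 38 members (94.7%, against 32.7% of all genes tested), the exceptions being Postn, highest in control sample 1, and Tnc, highest in mutant sample 3. Control sample 2 had the lowest FPKM in 33 members (86.8%, against 26.7% of all genes). The FPKM values of the 38 members added up to 3199, 2380, 2902 and 3137 across controls 1 to 4 and to 5875, 3500 and 3928 across mutants 1 to 3. Each mutant sum was above each control sum. As a share of the FPKM of all genes these were 0.611%, 0.431%, 0.545% and 0.593% in control and 1.09%, 0.657% and 0.726% in mutant nerves.

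Set against the control mean of each gene, mutant sample 1 was 2.21-fold higher by the median over the members, from 1.2-fold for Tnc to 4.92-fold for Thbs1. Mutant sample 2 was 1.13-fold higher by the median, with 34 members above the control mean, and mutant sample 3 was 1.34-fold higher, also with 34 members above. By these medians mutant sample 1 was further from mutant sample 2 than mutant sample 2 was from the control mean. Compared with the control of the same number, the mutant sample was higher in 37 of 38 members in pair 1 (median 1.94-fold), in 36 in pair 2 (1.48-fold) and in 35 in pair 3 (1.32-fold). The mutant was above its control in every pair for 32 members, against 32.7% of all genes tested. The 6 members that were not were Eln, Mfap4, Mfap2, Fbln2, Postn and Tnc.

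**Figure D2:**
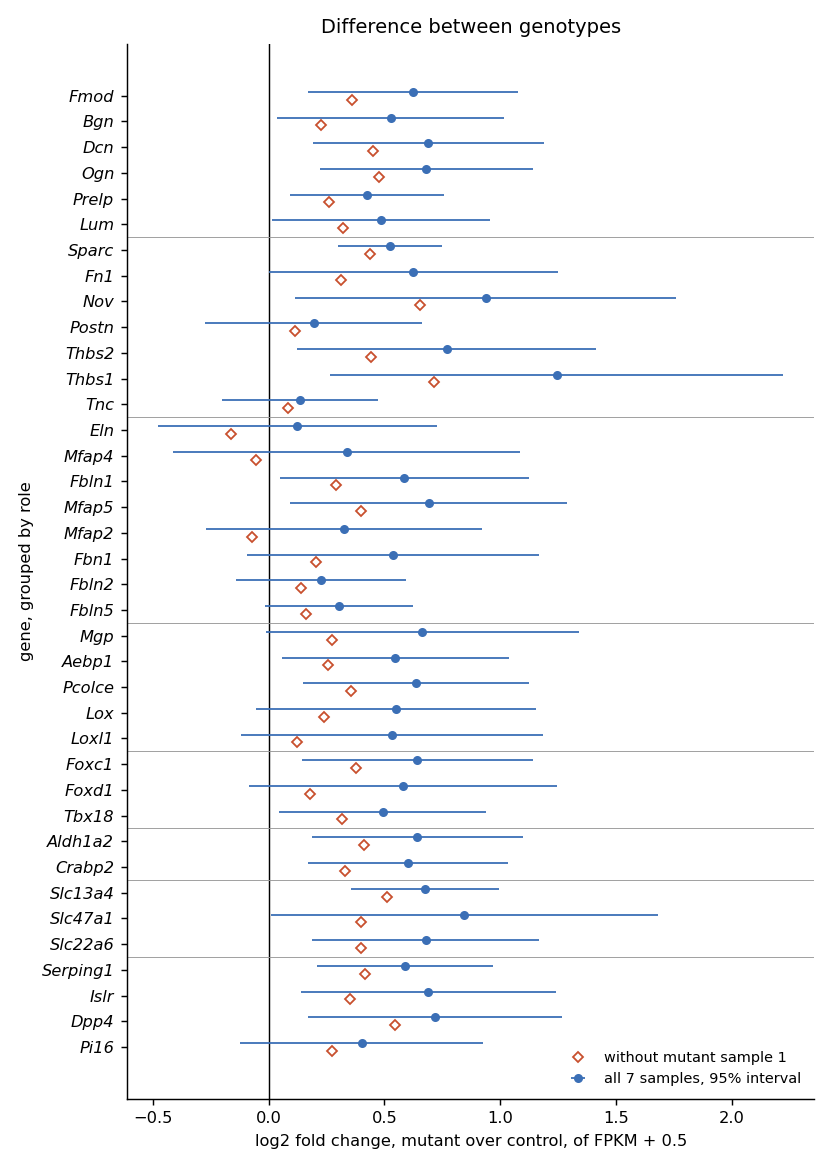
Log2 fold change of each member, mutant over control, of FPKM + 0.5 (horizontal axis), with members grouped by role on the vertical axis. Filled circles with bars are the fit to all 7 samples with its 95% interval, and open diamonds are the fit without mutant sample 1; all 38 circles lie above 0, and 35 of the 38 diamonds do.

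The small leucine-rich proteoglycans, which bind collagen fibrils, had 6 members, all higher by the mean, with a median log2 fold change of 0.58. None was called in the fit without the block, and Dcn, Ogn, Fmod and Prelp were called in the paired fit. Fmod encodes fibromodulin, a regulator of collagen fibril assembly, and was the most abundant of them (ENSMUSG00000041559, chromosome 1 from 134037254 to 134048277, plus strand, GRCm38). Its level was 191, 159, 206 and 191 FPKM across controls 1 to 4 and 414, 208 and 275 FPKM across mutants 1 to 3. Every mutant sample was above every control sample, but mutant sample 2 was above the highest control by less than the controls differed among themselves. The control mean was 187 ± 19.8 FPKM (SD, n = 4) and the mutant mean 299 ± 105 FPKM (SD, n = 3), with a log2 fold change of 0.63 (SE 0.20, limma adjusted p = 0.112 and 0.0444 with the replicate block).

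Dcn, which encodes decorin, the founding proteoglycan of this family and a binder of TGF-beta, was at 111, 62.4, 77.5 and 81.6 FPKM across controls 1 to 4 and 184, 117 and 107 FPKM across mutants 1 to 3. Only mutant sample 3 overlapped the controls, below control sample 1. Mutant over control, the log2 difference was 0.69 (SE 0.220, adjusted p = 0.110, limma) and 0.69 in the paired fit (adjusted p = 0.0235, limma). Ogn, encoding osteoglycin, was at 70.4, 45.2, 67.8 and 64.8 FPKM across controls 1 to 4 and 130.4, 73.4 and 99.2 FPKM across mutants 1 to 3, with no overlap between the genotypes. It changed by 0.68 on the log2 scale (SE 0.203, limma adjusted p = 0.0984, 0.0222 with the block). Ogn lies across Cenpp on the opposite strand, which was at most at 1.25 FPKM. Prelp, a proteoglycan that anchors basement membranes to connective tissue, was at 35.7, 25.4, 30.2 and 32.4 FPKM across controls 1 to 4 and 51.8, 38.7 and 35.2 FPKM across mutants 1 to 3. Its log2 fold change was 0.42 (adjusted p = 0.131, limma), and mutant sample 3 was just below control sample 1. Bgn, encoding biglycan, and Lum, encoding lumican, had log2 fold changes of 0.53 and 0.49 with overlapping groups and passed neither without nor with the block (adjusted p = 0.0514 and 0.0530 with it, limma).

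Fibronectin and the matricellular glycoproteins had 7 members with a median log2 fold change of 0.63. Sparc, Thbs1 and Thbs2 did not overlap between the genotypes. Sparc encodes a secreted glycoprotein that binds collagen and calcium (ENSMUSG00000018593, chromosome 11 from 55394500 to 55420080, minus strand). Its level was 1088, 928, 995 and 996 FPKM across controls 1 to 4 and 1625, 1298 and 1413 FPKM across mutants 1 to 3. The mutant samples were all above the controls, which lay close together, and the lowest mutant sample was further above the highest control than the controls were apart. The mean rose, from 1002 ± 65.8 FPKM (SD, n = 4) in control to 1445 ± 166 FPKM (SD, n = 3) in mutant nerves, by a log2 fold change of 0.53 (SE 0.0985, adjusted p = 0.0354, limma). Without mutant sample 1 it was 0.44 (adjusted p = 0.0672, limma). When samples were left out 1 at a time, the log2 fold change was between 0.44 and 0.60, and the adjusted p was between 0.0272 and 0.122 and under 0.05 only without mutant sample 2.

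Thbs1 and Thbs2 encode thrombospondins, secreted inhibitors of vessel growth that also promote synapse formation. Thbs1 had the largest log2 fold change of all members (ENSMUSG00000040152, chromosome 2 from 118111876 to 118127133, plus strand). It was at 8.38, 3.79, 8.12 and 10.2 FPKM across controls 1 to 4 and 37.6, 10.4 and 14.2 FPKM across mutants 1 to 3. Mutant sample 2 was only just above control sample 4, and mutant sample 1 was far above every other sample. This gave a log2 fold change of 1.25 (SE 0.432, 95% interval 0.27 to 2.22, adjusted p = 0.131, limma). In the paired fit it was 1.40 (adjusted p = 0.0251, limma), and without mutant sample 1 it was 0.72, still the largest of the members. Thbs2 was at 12.2, 6.09, 9.95 and 11.2 FPKM across controls 1 to 4 and 26.4, 12.3 and 14.1 FPKM across mutants 1 to 3. The genotypes did not overlap, but mutant sample 2 was only just above control sample 1. On the log2 scale the genotypes differed by 0.77 (adjusted p = 0.148, and 0.0251 with the block, limma).

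Fn1 encodes fibronectin, the glycoprotein through which cells grip the matrix by integrins. It was at 206, 119.7, 173 and 228 FPKM across controls 1 to 4 and 422, 201 and 240.3 FPKM across mutants 1 to 3. Mutant sample 2 lay below control samples 1 and 4, and mutant sample 3 only just above control sample 4. The fitted log2 fold change was 0.63 (SE 0.276, adjusted p = 0.204, limma), and 0.75 in the paired fit (adjusted p = 0.0251, limma). Nov, now named Ccn3, encodes a matricellular regulator of cell adhesion and was at 89.2, 39.9, 116 and 93.8 FPKM across controls 1 to 4 and 225, 102 and 152 FPKM across mutants 1 to 3. Control sample 2 was the lowest by far, and mutant sample 2 was below control sample 3. As a log2 fold change the difference was 0.94 (SE 0.364, adjusted p = 0.160, and 0.0274 with the block, limma). Postn, encoding periostin, and Tnc, encoding tenascin-C, had log2 fold changes of 0.20 and 0.14, with intervals of -0.27 to 0.66 and -0.20 to 0.47, and neither was called with or without the block. In Tnc, mutant sample 2 was the lowest of the 7 samples, at 3.92 FPKM.

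**Figure D3:**
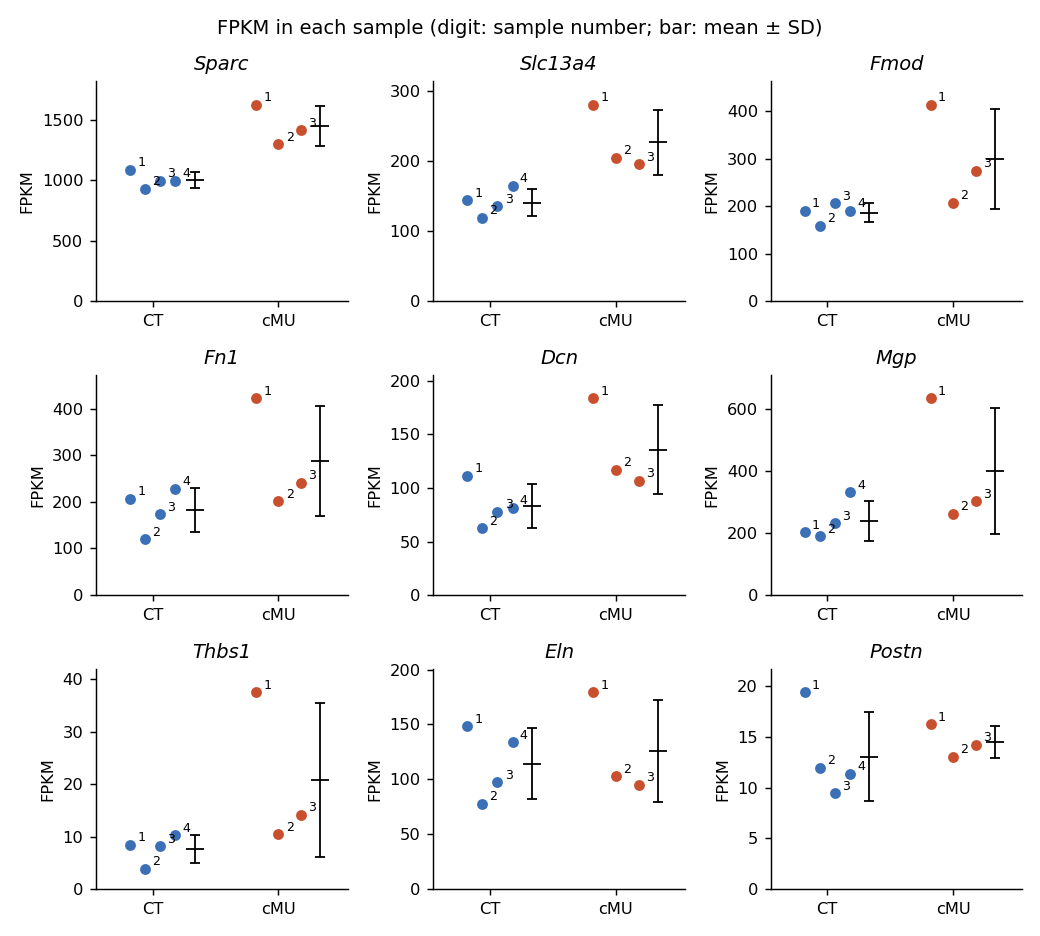
FPKM of 9 members (vertical axes, each from 0) in control (CT, blue) and mutant (cMU, red) samples; digits are sample numbers, and horizontal ticks with bars are the group mean and SD (n = 4 and n = 3). In Sparc and Slc13a4 all mutant points stand clear of the controls, whereas in Mgp, Fn1 and Eln mutant sample 1 is the highest and the other mutant samples lie among the controls or close to them.

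The 8 elastic fibre and microfibril proteins had the lowest median of the roles, a log2 fold change of 0.33, and in none of them were the genotypes separate. Eln encodes elastin, the rubber-like core of elastic fibres. It was at 148, 77.5, 97.3 and 134 FPKM across controls 1 to 4 and 179, 103 and 95.1 FPKM across mutants 1 to 3. Mutant samples 2 and 3 lay within the control range. Between genotypes the log2 fold change was 0.12 (SE 0.265, 95% interval -0.48 to 0.73, adjusted p = 0.809, limma), and it was -0.16 without mutant sample 1 and -0.0456 without control sample 2. Elastin is therefore a member for which no direction can be given.

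Mfap5, a glycoprotein of the microfibrils, was at 34.5, 16.9, 26.1 and 24.5 FPKM across controls 1 to 4 and 60.5, 31.6 and 34.0 FPKM across mutants 1 to 3. Its log2 fold change was 0.69 (adjusted p = 0.156, and 0.0251 with the block, limma), and mutant samples 2 and 3 lay just below control sample 1. Fbln1, encoding fibulin-1, a calcium-binding glycoprotein of matrix and basement membranes, was at 29.7, 21.3, 31.4 and 31.1 FPKM across controls 1 to 4 and 64.2, 29.8 and 39.8 FPKM across mutants 1 to 3. It changed by 0.59 on the log2 scale (adjusted p = 0.173, and 0.0430 with the block, limma), and mutant sample 2 lay within the control range. The other members of this role, which were Fbn1 (fibrillin-1), Fbln2 and Fbln5 (fibulins that assist elastic fibre assembly), Mfap2 and Mfap4 (microfibril-associated), had log2 fold changes of 0.23 to 0.54 and were not called in either fit. Fbn1 lay just outside in the paired fit (adjusted p = 0.0504, limma). The direction of Mfap2 and Mfap4 rested on mutant sample 1, and without it their log2 fold changes were -0.07 and -0.06. Mfap4 overlaps Mapk7 on the opposite strand by 89 bases, and Mapk7 was at most at 12.5 FPKM. Fbn1 overlaps Gm9913 on the opposite strand by 2793 bases, and Gm9913 was at most at 0.0343 FPKM.

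The 5 matrix enzymes and regulators had a median log2 fold change of 0.55, with every group overlapping. Mgp encodes matrix Gla protein, an inhibitor of calcification that vessels also make, and was the most abundant (ENSMUSG00000030218, chromosome 6 from 136872436 to 136875805, minus strand). It was at 202, 190.1, 232 and 332 FPKM across controls 1 to 4 and 635, 262 and 304 FPKM across mutants 1 to 3. Mutant samples 2 and 3 lay below control sample 4, and mutant sample 1 was above every other sample. Mutant over control, the log2 difference was 0.66 (SE 0.298, adjusted p = 0.211, and 0.0683 with the block, limma), and 0.27 without mutant sample 1. Pcolce, which enhances the cleavage of procollagen, was at 50.1, 35.3, 45.9 and 46.0 FPKM across controls 1 to 4 and 101, 49.8 and 64.1 FPKM across mutants 1 to 3. Mutant sample 2 was just below control sample 1. It changed by 0.64 (adjusted p = 0.126, and 0.0265 with the block, limma), and it overlaps Fbxo24 on the same strand, which was at most at 0.508 FPKM. Lox, encoding lysyl oxidase, which cross-links collagen and elastin, was at 24.1, 12.7, 20.7 and 17.2 FPKM across controls 1 to 4 and 41.5, 20.1 and 23.1 FPKM across mutants 1 to 3. Its log2 fold change was 0.55 (adjusted p = 0.242, and 0.0472 with the block, limma). The related Loxl1 and Aebp1, a collagen-binding secreted protein, had log2 fold changes of 0.53 and 0.55 and were not called in either fit.

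The meningeal transcription factors were at low FPKM, and the 3 members had a median log2 fold change of 0.58. Foxc1, a forkhead factor required for the formation of the meninges, was at 9.25, 6.01, 7.99 and 8.66 FPKM across controls 1 to 4 and 18.4, 9.13 and 11.8 FPKM across mutants 1 to 3. Only mutant sample 2 overlapped the controls, just below control sample 1. This gave a log2 fold change of 0.64 (SE 0.221, adjusted p = 0.130, limma) and 0.69 in the paired fit (adjusted p = 0.0251, limma). Tbx18, a T-box factor of meningeal and mural cells, was at 4.84, 3.09, 4.52 and 4.67 FPKM across controls 1 to 4 and 7.97, 4.52 and 6.41 FPKM across mutants 1 to 3. Its log2 fold change was 0.49 (adjusted p = 0.171, and 0.0320 with the block, limma). Foxd1, another forkhead factor of meninges and optic stalk, changed by 0.58 and was called in neither fit (adjusted p = 0.0704 with the block, limma), and its log2 fold change was 0.18 without mutant sample 1.

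The retinoid genes among the members act in sequence, and their median log2 fold change was 0.62. Aldh1a2 encodes the dehydrogenase that makes retinoic acid, and Crabp2 encodes a protein that carries retinoic acid to its nuclear receptors. Aldh1a2 was at 61.5, 44.3, 53.7 and 63.2 FPKM across controls 1 to 4 and 119, 62.8 and 86.3 FPKM across mutants 1 to 3. Mutant sample 2 was just below control sample 4, and the other mutant samples were above every control. On the log2 scale the genotypes differed by 0.64 (SE 0.201, adjusted p = 0.106, limma), and 0.0235 was the adjusted p in the paired fit (limma). Crabp2 was at 47.2, 38.9, 41.8 and 48.4 FPKM across controls 1 to 4 and 97.6, 51.9 and 59.1 FPKM across mutants 1 to 3. Here the genotypes did not overlap. The fitted log2 fold change was 0.60 (SE 0.191, adjusted p = 0.110, and 0.0313 with the block, limma).

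The 3 solute carriers had the highest median of the roles, a log2 fold change of 0.68, and all of them were called in the paired fit. That rank rested on mutant sample 1, since without it their median was 0.40 and that of fibronectin and the matricellular glycoproteins was 0.44. Slc13a4 encodes a sodium-coupled sulfate transporter (ENSMUSG00000029843, chromosome 6 from 35267957 to 35308131, minus strand). Its level was 144, 119, 136 and 164 FPKM across controls 1 to 4 and 280.4, 204 and 196 FPKM across mutants 1 to 3. Mutant samples 2 and 3 were close together, and both were above control sample 4, the highest control. From a control mean of 141 ± 18.7 FPKM (SD, n = 4) the level rose to a mutant mean of 227 ± 46.6 FPKM (SD, n = 3), by a log2 fold change of 0.68 (SE 0.142, adjusted p = 0.0467, limma). Without mutant sample 1 it was 0.51 (adjusted p = 0.0686, limma). When samples were left out 1 at a time, it was between 0.51 and 0.77, and the adjusted p was between 0.0428 and 0.138 and under 0.05 only without mutant sample 2.

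Slc47a1 encodes an exporter of organic cations and toxins and was at 28.8, 16.5, 35.6 and 32.3 FPKM across controls 1 to 4 and 91.9, 30.0 and 43.5 FPKM across mutants 1 to 3. Mutant sample 2 lay within the control range, and mutant sample 1 was 3.19-fold above the control of the same number. As a log2 fold change the difference was 0.85 (SE 0.368, adjusted p = 0.199, limma), and in the paired fit the gene was only just under the threshold (adjusted p = 0.0499, limma). Slc22a6 encodes an organic anion transporter and was at 16.1, 13.4, 17.2 and 17.9 FPKM across controls 1 to 4 and 38.6, 18.2 and 24.9 FPKM across mutants 1 to 3. The genotypes did not overlap, although mutant sample 2 was only just above control sample 4. Between genotypes the log2 fold change was 0.68 (SE 0.216, adjusted p = 0.111, and 0.0372 with the block, limma).

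Among the 4 surface and secreted proteins of fibroblasts the genotypes were separate in Serping1, Islr and Dpp4, and the median log2 fold change was 0.64. Serping1, encoding the inhibitor of complement C1, was at 106, 69.5, 81.8 and 96.2 FPKM across controls 1 to 4 and 167, 119.6 and 114 FPKM across mutants 1 to 3. It changed by 0.59 on the log2 scale (SE 0.168, adjusted p = 0.0894, and 0.0235 with the block, limma). After the 2 called members it had the smallest adjusted p in the fit without the block. Islr, a secreted protein also called meflin and known from mesenchymal cells, was at 66.7, 49.5, 62.8 and 69.8 FPKM across controls 1 to 4 and 160.3, 72.2 and 85.9 FPKM across mutants 1 to 3. Mutant samples 2 and 3 were above control sample 4 by less than the controls differed among themselves. Mutant over control, the log2 difference was 0.69 (adjusted p = 0.135, and 0.0346 with the block, limma). Dpp4, a cell surface peptidase used as a marker of fibroblasts, was at 23.4, 11.0, 15.5 and 20.7 FPKM across controls 1 to 4 and 36.2, 23.9 and 26.2 FPKM across mutants 1 to 3. Its lowest mutant sample was only just above control sample 1. This gave a log2 fold change of 0.72 (adjusted p = 0.125, and 0.0235 with the block, limma). Pi16, encoding a peptidase inhibitor of fibroblasts, had a log2 fold change of 0.40 with overlapping groups and was called in neither fit.

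The members were listed as matrix and fibroblast genes, so their matrix annotation follows from that choice and is no result of these data. The annotation in the table put 22 of the 38 members in the proteinaceous extracellular matrix, against 1.62% of all genes tested, and 17 in the extracellular space, against 4.88%. Binding of heparin was annotated for Fn1, Nov, Pcolce, Postn, Prelp, Thbs1 and Thbs2, and binding of collagen for Dcn, Dpp4, Lum, Pcolce and Sparc. Of these, Thbs1 and Nov had the largest log2 fold changes of all members and Postn one of the smallest, so the annotation did not go with 1 size of difference. Transcript length (median 2270 bases) and GC content (median 52.6%) of the members were close to those of all genes tested (2151 bases and 50.8%). Members lay on many chromosomes, with few close neighbours. Dcn and Lum are next to each other on chromosome 10, with 47339 bases between them, and Fmod and Prelp lie 115840 bases apart on chromosome 1. The members of each of these pairs had log2 fold changes of 0.69 and 0.49, and of 0.63 and 0.42. Slc47a1 and Mfap4 lie 107086 bases apart on chromosome 11 and had less similar values, 0.85 and 0.34. Islr and Loxl1 lie 128502 bases apart on chromosome 9, with 0.69 and 0.53.

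Lists of related genes were compared in the same way, to show whether the members stood alone. They were measured in the same samples as the members, a few genes stand in more than 1 of them (Gjb6, Vtn, Cspg4 and Des), and they were compiled with earlier results of these data known. The counts of these lists and of those below stand against 60.1% of all genes tested higher by the mean. Without the block 1.26% of all genes were called higher and 1.36% lower. In the paired fit 6.42% were called higher, and 269 of 13866 genes were called lower. The list of other meningeal and fibroblast genes had 35 tested genes, 34 of them higher by the mean, with a median log2 fold change of 0.65. Cd34, a surface protein of fibroblasts and endothelium, was the only one of them called, at 28.1 ± 1.86 FPKM (SD, n = 4) in control and 37.2 ± 0.83 FPKM (SD, n = 3) in mutant nerves (a difference of 0.40 in log2, adjusted p = 0.0274, limma), and 20 were called higher in the paired fit. Ptgds, the prostaglandin D synthase of the arachnoid and of OLs, was the most abundant, at 6054 ± 418 FPKM (SD, n = 4) in control and 10776 ± 3575 FPKM (SD, n = 3) in mutant nerves, with adjusted p = 0.0820 (limma). Among the 25 collagen genes 23 were higher by the mean, the median was 0.46 and none was called, but 11 were called higher in the paired fit.

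The medians of other matrix families were all below that of the members. The 19 other matricellular genes had a median of 0.52, with 16 higher by the mean and 8 called higher in the paired fit. For the other fibulin, fibrillin and LTBP genes the median was 0.37 (12 of 13 higher by the mean, 3 called in the paired fit). It was 0.36 for 6 other small leucine-rich proteoglycans (4 higher, 2 called in the paired fit), 0.34 for 11 basement membrane genes (10 higher, 4 called in the paired fit) and 0.23 for 17 other matrix enzymes (13 higher, 3 called in the paired fit). None of these genes was called in the fit without the block, and none was called lower in either fit. Tnr, a tenascin of OLs, and Chadl, a relative of chondroadherin, had every mutant sample below every control sample, in contrast to the members, with log2 fold changes of -0.40 and -0.44 (adjusted p = 0.0721 and 0.0775, limma).

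**Figure D4:**
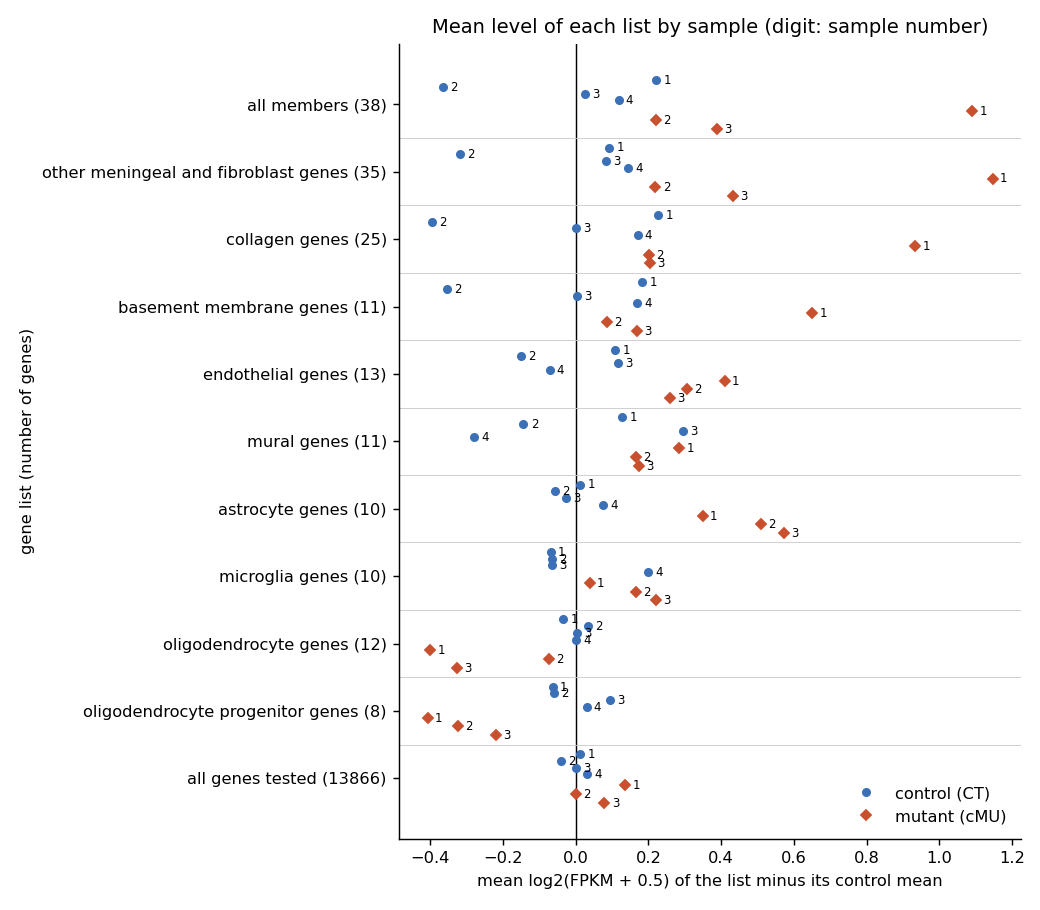
Mean log2(FPKM + 0.5) of each gene list minus its control mean (horizontal axis) in each control (circles) and mutant sample (diamonds), with the sample number beside each point and the number of genes in brackets. In the members, the other meningeal genes, the collagens and the basement membrane genes mutant sample 1 is far to the right and control sample 2 far to the left, whereas in the astrocyte list mutant sample 1 is the lowest of the mutant samples.

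Markers of other cell types moved between the genotypes too, and their part in the values of the members was not tested. The mean of the members on the log2 scale, relative to control, was 0.22, -0.36, 0.02 and 0.12 across controls 1 to 4 and 1.09, 0.22 and 0.39 across mutants 1 to 3, so that mutant sample 2 lay just below control sample 1. For 10 astrocyte genes it was 0.35, 0.51 and 0.57 in the mutant samples, with mutant sample 1 the lowest of them. In this list 4 genes were called higher, which were Aldoc, Gja1, Aldh1l1 and Slc1a2 (limma), the median was 0.53, and 7 were called in the paired fit. All 13 endothelial genes were higher by the mean, with a median of 0.30, none called and 3 called in the paired fit. The 11 mural genes had a median of 0.20, with Cspg4 called lower in both fits and Pdgfrb and Vtn called higher in the paired fit. The 10 microglia genes had one of 0.10, with none called without the block and Csf1r called higher in the paired fit (adjusted p = 0.0449, limma).

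Most markers of the OL lineage had a lower mean in mutant nerves, 11 of 12 OL genes and 7 of 8 progenitor genes. The exceptions were Ugt8a, with every mutant sample above every control sample and a log2 fold change of 0.29 (adjusted p = 0.152, limma), and Ptprz1, with one of 0.08. The median log2 fold change was -0.33 for 12 OL genes, of which Mag and Cnp were called lower, and in the paired fit Sox10 alone. It was -0.37 for 8 progenitor genes, of which Gpr17, Olig2 and Cspg4 were called lower, and in the paired fit C1ql1 as well (limma). The sum of the FPKM of the OL genes was 57933 to 65659 in control and 42456, 54396 and 45019 across mutants 1 to 3. FPKM values depend on the total of each sample, and with the samples rescaled by median ratios the median log2 fold change of the members was 0.54.

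Tissues beside the nerve were checked for in the same samples. Hemoglobin and other erythrocyte genes summed to 12729 FPKM in control sample 2, against 2853 to 4320 in the other controls and 3817 to 5599 in the mutant samples, so the control with the lowest members had the most erythrocyte RNA. Skeletal muscle genes summed to 88.7 FPKM in mutant sample 2 and to at most 12.5 in any other sample. Photoreceptor genes summed to at most 1.54 FPKM and pigment cell genes to at most 1.52 FPKM in every sample, with Prph2 at 0 throughout. Schwann cell genes had a median log2 fold change of -0.10. The part of these tissues in the values of the members was not tested.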

How the data were processed

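Optic nerve RNA of 4 control and 3 mutant mice had been sequenced from stranded mRNA libraries in single end mode. The submitters' processing notes name STAR 2.5.1b, RSEM 1.2.22, edgeR and the build GRCm38. The authors estimated gene levels with RSEM and deposited 22880 genes with an FPKM value and a normalized count per sample, a signal they made by dividing by a size factor whose method is not given in the sources used here. The authors also deposited GC content as a fraction, and 3 columns of their own comparison, a log2 ratio, a p-value and an FDR, which were not used. All columns of single samples were used (0 left out). Whether counting used strand is not stated, so overlapping genes are named.

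Groups came from the labels. The main test was limma-trend (limma 3.58.1, R 4.3.3) on log2(FPKM + 0.5), for genes with at least 0.5 FPKM in at least 3 samples, genotype being the only term, with Benjamini-Hochberg adjustment over 13866 genes. Fold changes on this scale understate those of low genes. Low normalized counts came in steps worth 1 read, and of the values worth 0.5 to 10 reads, 73.5% to 78.5% lay within 0.02 of a whole read. These reads gave the depth and the added tests in edgeR 4.0.16 and DESeq2 1.42.0. The fits and the recovery of reads were tested on simulated data. For each control with each mutant sample, deviations from the group means were correlated over all tested genes. The 3 pairs of the same number gave 0.168 to 0.409, and the 9 of different numbers -0.353 to 0.205. The ranges overlap, since control sample 4 with mutant sample 1 (0.205) lay above pair 1 (0.168). On autosomal genes pairs 1 to 3 gave 0.129, 0.389 and 0.204, and control sample 4 with mutant sample 1 gave 0.263. The numbers were nevertheless taken as pairs, as an assumption, in a second fit with the number as a replicate block. What a number stands for is not given, and the Y chromosome genes show that it goes with sex.

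The members and lists were chosen with earlier results of these data known. Values in every sample are given for members called with or without the block, the largest changes, the 4 most abundant members and the most abundant of each role, and the others by range. Littermates and age-matched mice were used, but which samples were littermates is not given in the sources used here. The limma p-values set the difference between genotypes against the spread between these samples, which limma-trend draws toward a trend over all tested genes. Promoter sequences and their start sites are from RefSeq.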

Additional observations from a re-analysis of the deposited data

Results flagged for a closer look

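In 2 of the 38 members checked, 1 control sample lay far from the other controls, by a gap to its nearest neighbour above Dixon's 95% critical value for 4 samples. Among independent groups chance flags about 1 in 20. The members vary together, so that rate cannot be applied to them, and the part of chance was not tested. Fbn1 was at 8.85 FPKM in control sample 2, below the other controls, with a gap of 0.903 of the range. Mfap4 was at 86.9 FPKM in control sample 1, above the other controls, with a gap of 0.959 of the range. Control sample 2 was the lowest sample for most members, and Mfap4 is one of the members whose direction turned without mutant sample 1. The groups of 3 mutant samples were not checked in this way.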

How the results depend on the processing

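The calls depended on the setting far more than the direction did. The median log2 fold change of the members ran from 0.32 to 0.79 when samples were left out 1 at a time, and it was 0.20 with control sample 2 and mutant sample 1 both left out. Members called higher numbered 2 in the reported fit (1.26%, where percentages are the share of all genes called higher). With each sample left out they numbered 0 to 10 (10 without mutant sample 2, at 4.06%, and 0 without any other). They numbered 0 with no filter on low values (0.171%), and 1 (Slc13a4) on normalized counts (0.736%) or after quantile normalization (1.02%). With sample weights there were 7 (6.55%) and with the replicate block 23 (6.42%). In tests added after the data had been seen, they numbered 2 in edgeR without the block (Sparc and Slc13a4, 1.17%). They numbered 24 in edgeR with the block (6.14%) and 14 in DESeq2 without it (6.68%). Those tests also gave 0 with sex as a term (0.685%) and 0 with control sample 2 and mutant sample 1 left out (0.195%). No member was called lower in any of these fits. Apart from the counts and calls given, the block changed no other call of a member. Members with every mutant sample above every control numbered 11, and 11 to 25 with each sample left out, while the share of all genes went from 12.9% to between 14.6% and 25.2%. Without mutant sample 1 it was 11 members against 16.3% of all genes, and without mutant sample 2 it was 25 against 25.2%.

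Over all genes 363 were called, and 6 to 907 with each sample left out, 95 with no filter, 1525 with sample weights, 1159 with the block, 1313 in edgeR with the block, 1693 in DESeq2, 203 with sex as a term and 51 with both samples left out. The split was 175 higher and 188 lower, against 102 and 266 on normalized counts, 135 and 221 by median ratios and 141 and 281 after quantile normalization. In edgeR without the block it was 162 and 238. The cause of these shifts was not tested.

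Directions turned only in Eln (-0.0456 without control sample 2, -0.161 without mutant sample 1, -0.331 without control sample 2 and mutant sample 1), Mfap2 (-0.0719 without mutant sample 1, -0.122 without both), Mfap4 (-0.0556 and -0.145) and Tnc (-0.00145 without mutant sample 3), all in log2 fold change. With each sample left out, their highest values were 0.30, 0.57, 0.62 and 0.33, respectively.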
